A study of Mus musculus with 6 samples.

Results

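The cells described here are the red blood cells of the mouse olfactory bulb, the brain's first relay for odor information. They are the 219 cells that the authors' annotation calls RBCs, of 51426 annotated single cells in 38 clusters, and the library of each cell was taken from the library field of that annotation. Single-cell RNA was profiled with a droplet method that counts the 3′ ends of transcripts with unique molecular identifiers (UMIs), so 1 UMI stands for 1 captured RNA molecule. The 6 libraries came from olfactory bulbs of C57BL/6NJ mice aged 14 weeks. Each library was a pool of 3 mice, with males in replicate 1 and females in replicate 2 of every condition, so that sex cannot be told apart from the replicate number. The conditions were control (2 libraries, without manipulation), naris occluded (2 libraries, deprived of odor by closing a nostril for 6 weeks) and olfactory trained (2 libraries, trained for 6 weeks to discriminate odors). According to the paper, the trained mice were water deprived and worked for a water reward. It names no water deprivation for the other mice, so training cannot be told apart from it. The sources describe the control both as naive mice and as the open side of occluded mice, and the labels give no manipulation. All mice were perfused through the heart with phosphate-buffered saline before dissection, a step that washes blood out of the vessels, and no label says whether clotted vessels or surface blood remained.

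Red blood cells carry oxygen on hemoglobin, a tetramer of alpha and beta globin chains that each hold a heme group. They arise in the bone marrow from erythroblasts, which divide, fill with globin RNA, expel the nucleus and enter the blood as reticulocytes. A reticulocyte still holds RNA, ribosomes and mitochondria, and it breaks these down by autophagy and the ubiquitin pathway within days, after which the mature cell makes no RNA or protein. In brain tissue these cells lie inside blood vessels and are not a resident type.

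The promoters of the adult globin genes and of Alas2, the rate-limiting enzyme of heme synthesis in red cells, are shown because the results turn on these genes. The sequences are the 250 bases before each gene's start in RefSeq on GRCm38.p6, the build that the authors call mm10, written 5′ to 3′ on the gene's strand. Capitals mark matches, on either strand, to a GATA motif (AGATAA or TGATAA), to CCACACCC, to CCAAT and to ATATAA.
Hba-a1, chr11:32283422-32283671, plus strand: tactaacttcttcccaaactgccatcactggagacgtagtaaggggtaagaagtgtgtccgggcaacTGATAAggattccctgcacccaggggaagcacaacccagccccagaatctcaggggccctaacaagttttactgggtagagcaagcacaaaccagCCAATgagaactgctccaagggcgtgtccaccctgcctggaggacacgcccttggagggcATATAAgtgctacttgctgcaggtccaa
Hbb-bs, chr7:103827929-103828178, minus strand: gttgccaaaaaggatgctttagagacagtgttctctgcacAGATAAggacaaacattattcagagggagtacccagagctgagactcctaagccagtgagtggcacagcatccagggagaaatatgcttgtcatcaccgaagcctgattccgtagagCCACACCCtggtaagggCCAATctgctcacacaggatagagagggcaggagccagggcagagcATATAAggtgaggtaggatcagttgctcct
Hbb-bt, chr7:103813924-103814173, minus strand: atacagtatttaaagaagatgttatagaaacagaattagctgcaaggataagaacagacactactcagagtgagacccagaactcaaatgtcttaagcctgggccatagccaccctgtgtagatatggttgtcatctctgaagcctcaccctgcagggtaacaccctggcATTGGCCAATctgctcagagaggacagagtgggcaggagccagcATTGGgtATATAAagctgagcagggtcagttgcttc
Alas2, chrX:150547167-150547416, plus strand: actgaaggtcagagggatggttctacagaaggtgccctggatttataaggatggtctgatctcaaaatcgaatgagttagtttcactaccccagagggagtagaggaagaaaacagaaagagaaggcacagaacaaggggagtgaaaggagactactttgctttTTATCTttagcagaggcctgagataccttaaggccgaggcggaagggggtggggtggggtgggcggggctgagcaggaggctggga
The Hba-a1 window held the GATA motif 183 bases before the start, CCAAT at 88 and ATATAA at 28. The Hba-a2 window, chr11:32296242-32296491 on the plus strand, shared a run of 247 of the 250 bases with that of Hba-a1. The Hbb-bs window held all 4 motifs, with the GATA motif at 210, CCACACCC at 93, CCAAT at 76 and ATATAA at 30 bases before the start. The Hbb-bt window held no match to the GATA motif or to CCACACCC but 3 matches to CCAAT, at 80, 75 and 36, and ATATAA at 29, and its longest run shared with Hbb-bs was 14 bases. In the Alas2 window the single match was a GATA motif at 86. Of 32851 RefSeq promoters of the same length, 16.6% held the GATA motif, 3.20% CCACACCC, 33.8% CCAAT and 9.10% ATATAA. A match is a string of letters and not a site shown to be used.

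Values for the 6 libraries are given below in the order control replicates 1 and 2, naris occluded replicates 1 and 2 and olfactory trained replicates 1 and 2. The libraries held 6705 to 10570 annotated cells and 11841160 to 17065083 UMIs. Xist, transcribed from the inactive X of females, reached 0 to 5 UMIs in the male pools and 20000 to 27904 in the female pools, and the Y-linked Ddx3y 1116 to 1201 UMIs in the male pools and 0 in the female pools, so the pools carried the sexes given for them. Of the annotated cells 2956 had a barcode that also occurred in another library, 10 red blood cells among them, but no barcode was shared by a pair of red blood cells. Doublets were not called again here.

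The markers were those of the label. Hba-a1, an alpha globin, and Hbb-bs, an adult beta globin, made up most of the RNA of the cluster in each library. Hbb-bs took 40.3, 40.0, 36.8, 33.6, 39.8 and 43.8% of the UMIs of the red blood cells in the 6 libraries (39.0% ± 3.46, SD, n = 6). Hba-a1 took 19.3, 20.0, 21.1, 18.2, 19.1 and 21.9% (19.9% ± 1.37). The near-identical alpha gene Hba-a2 took 16.1, 16.9, 17.9, 16.3, 15.1 and 17.3% (16.6% ± 0.990), and the second adult beta gene Hbb-bt 6.54, 6.63, 6.96, 5.59, 5.69 and 6.95% (6.39% ± 0.609). Every library thus had the order Hbb-bs, Hba-a1, Hba-a2, Hbb-bt. Reads of Hba-a1 and Hba-a2, and of Hbb-bs and Hbb-bt, may be assigned to the wrong copy or dropped where the copies share sequence, so the levels within a pair are uncertain. Of the UMIs of each of these genes in all annotated cells, 92.2 to 95% lay in the 219 cells. The cluster with the next highest level of all 4 genes was the microglia cluster MicroG3, and the level in red blood cells was 98.9 to 125 times higher. That rank goes with 3 of the 951 cells of MicroG3, which had 10% or more globin UMIs; in its cells under 1% the 4 genes together were at 122 CPM, within the 79.3 to 268 of the 37 other clusters. No p-value is given for a gene of this cluster against other clusters, because the expression values that would be tested also defined the clusters.

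**Figure D1:**
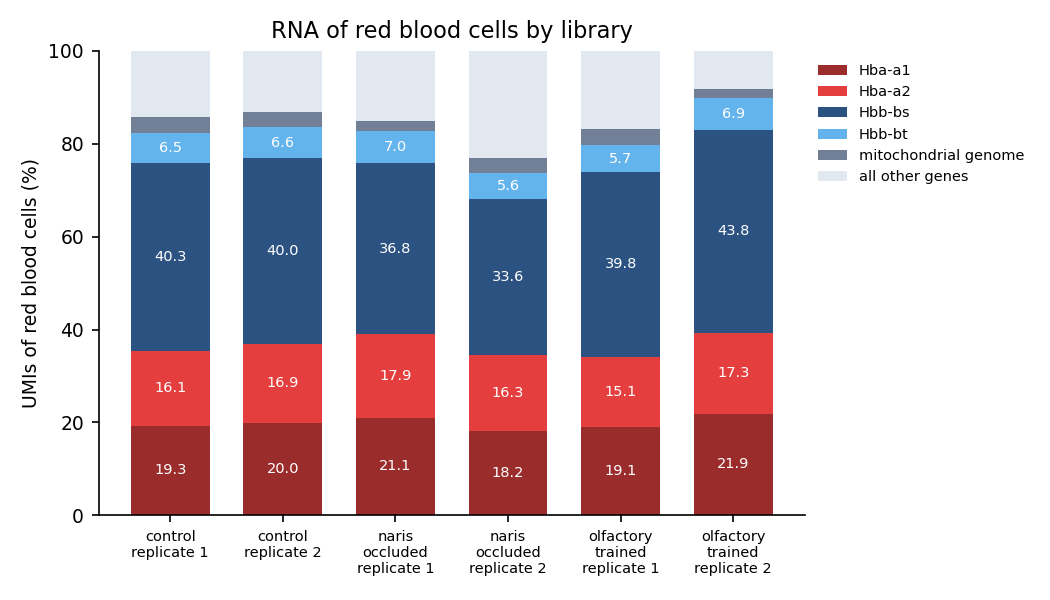
Share of UMIs (%) of red blood cells in each of the 6 libraries that came from the adult globin genes, the mitochondrial genome and all other genes, summed over the cells of the library. In every library Hbb-bs was the largest globin segment (33.6 to 43.8%), and the globin total was lowest in naris occluded replicate 2 and highest in olfactory trained replicate 2.

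The adult globins together made up 82.3, 83.5, 82.7, 73.7, 79.6 and 89.9% of the UMIs (82.0% ± 5.31, n = 6). Naris occluded replicate 2 was lowest and olfactory trained replicate 2 highest, so the range lay between the female pools. Beta globins were 56.9, 55.8, 52.9, 53.2, 57.1 and 56.4% of the adult globin UMIs (55.4% ± 1.86), and the ratio of alpha to beta UMIs was 0.756, 0.791, 0.890, 0.878, 0.752 and 0.773. Both naris occluded libraries had a higher ratio than the 4 others. The share of Hbb-bt in the beta UMIs was 14, 14.2, 15.9, 14.2, 12.5 and 13.7%, and that of Hba-a2 in the alpha UMIs 45.4, 45.9, 45.9, 47.2, 44.2 and 44.1%. Before rounding, naris occluded libraries were highest and olfactory trained libraries lowest in both shares. The smallest p that exact two-sided permutation of 2 and 2 libraries allows is 0.333, which was the value for naris occluded against control in these 3 ratios.

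In single cells the share of UMIs from the adult globins had a median of 86.8% and ran from 0.0122 to 94.9%. It was 80% or more in 139 cells, 50 to 80% in 60 cells and under 50% in 20 cells. All 4 adult globin genes had a UMI in 217 of the 219 cells, while a UMI of Hbb-bs was found in 13.0% of the other cells and one of Hba-a1 in 2.67% (median depth 3894 UMIs in red blood cells and 1348 in other cells). A single cell stood apart. It came from naris occluded replicate 1 and held 16363 UMIs of 3516 genes, of which 2 UMIs were globin and 38.1% ribosomal protein RNA. It had 9 UMIs of Cd79a and 14 of Vpreb3, both genes of the B cell lineage, 8 of the proliferation marker Mki67 and none of Alas2 or Bpgm. This cell held 10.3% of the non-globin UMIs of the cluster and 32.9% of those of its library. Some results are therefore given with and without it. Levels and counts of genes given without such a remark include it. In its library it lowers the level, relative to all non-globin UMIs, of genes that it lacks, such as Alas2 and Bpgm.

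Red blood cells were rich in molecules and poor in genes. Their median of 3894 UMIs per cell was the second highest of the 38 clusters, but their median of 285 genes was the lowest (311 to 2026 in the others). The fewest genes in a red blood cell were 203, at the edge of a minimum on genes that the authors applied, so cells with fewer genes are not in the data. With every cell thinned to 500 UMIs the median was 59 genes, against 207 to 393 in the other clusters. Outside the adult globins the cells held a median of 466 UMIs, the lowest of all clusters (655 to 4028.5 in the others). When cells were thinned to 250 non-globin UMIs, red blood cells had a median of 175 genes, within the range of the other clusters (121 to 211).

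Because the globins took most of the molecules, levels of other genes are given as non-globin CPM, the UMIs of a gene for each 1000000 UMIs of its cells with the 4 adult globin genes left out of the total. Where all UMIs make up the total the unit is called CPM of all UMIs. These are molecules and not molecules per length. Of 14446 genes with at least 100 UMIs in all cells, 514 had their highest mean level of the 38 clusters in red blood cells (3.56%), and 4145 had a higher mean than all other cells pooled (28.7%). The median ratio of red blood cells to other cells was 0.605 (−0.73 on the log2 scale). In CPM of all UMIs that median was 0.117 (−3.09 on the log2 scale), 21 genes were highest in red blood cells and 237 were above other cells, so whether a gene lies above or below other cells depends on this choice for many genes. The UMIs of the cluster came from 11335 genes, 735 of which were found in at least 10% of the cells and 207 of which, globins aside, had 100 UMIs or more.

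Genes of heme synthesis stood high. Of the 15 members of the list that could be ranked, 9 had their highest level of all clusters in red blood cells (3 in CPM of all UMIs) and 12 were above other cells (7 in CPM of all UMIs). The summed level was 5707 to 11707 non-globin CPM in the 6 libraries, against 450 to 494 in other cells. Alas2, which joins glycine and succinyl-CoA in the first step of the pathway, was at 4445, 6260, 5827, 2915, 3457 and 9146 non-globin CPM (5342 ± 2271, n = 6), with 773 UMIs in 78.5% of the red blood cells. All 51207 other cells held 44 Alas2 UMIs, in 0.0547% of the cells. Fech, which inserts the iron in the last step, was at 821, 1620, 924, 657, 691 and 2012 non-globin CPM (1121 ± 561), above the 77.0 of the next cluster, myelinating oligodendrocytes. Slc25a37, the mitoferrin that carries iron into mitochondria, had 72 UMIs in 5 of 6 libraries and none in olfactory trained replicate 2. Glrx5 of iron-sulfur cluster assembly reached 463 ± 126, and Urod of the middle steps had 25 UMIs. Alas1, the form of the first enzyme in other tissues, had 2 UMIs and its lowest level of the 38 clusters here.

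Storage of iron was less particular to the cluster. Of 15 genes of iron uptake and storage, 1 was highest in red blood cells and 10 were above other cells, a number that fell to 1 in CPM of all UMIs. Ftl1, the light chain of the iron store ferritin, was at 6408, 5597, 6249, 6364, 4337 and 12987 non-globin CPM (6990 ± 3040), highest in olfactory trained replicate 2 and ranked 3rd of the 38 clusters. Fth1, the heavy chain, was steadier at 5222 ± 587 and ranked 7th. Blvrb, a reductase of heme breakdown products that is abundant in red cells, was at 547 ± 203 and ranked 2nd. Tfrc, the transferrin receptor through which erythroblasts take up iron, had 16 UMIs and Tfr2 none, which allows up to 18.9 non-globin CPM.

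Red cell membrane genes named here were led by Cd24a. Of 21 members of the list that could be ranked, 6 were highest in red blood cells (2 in CPM of all UMIs) and 16 were above other cells (7 in CPM of all UMIs). Cd24a, a surface glycoprotein of early red cells and also of immature neurons, reached 2040 ± 420 non-globin CPM, 1.74 times the level in the neuron cluster N1, and 49 of its 334 UMIs lay in the cell with 2 globin UMIs. Epb41, band 4.1 of the membrane skeleton, was at 574 ± 289. Slc4a1, the anion exchanger band 3, had 27, 0, 16, 13, 0 and 0 UMIs, so that 3 libraries had none.

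In the list of red cell energy and redox genes, 5 of 25 members were highest in red blood cells (1 in CPM of all UMIs) and 18 were above other cells (3 in CPM of all UMIs). Bpgm makes 2,3-bisphosphoglycerate, which lowers the oxygen affinity of hemoglobin. It was at 3024, 3020, 3677, 1560, 2766 and 5487 non-globin CPM (3256 ± 1295), 10.5 times the next cluster. Gpx1, a glutathione peroxidase, reached 2646 ± 678 and Gclm, a subunit of the enzyme that starts glutathione synthesis, 647 ± 336, at 3.87 and 5.26 times the next cluster. Gpx1 was not spread evenly over the cells. It had a UMI in 32.9% of them, and 233 of its 413 UMIs lay in 22 cells with 20% or more Hbb-bt among beta UMIs. Prdx2, the peroxiredoxin abundant in red cells, was at 1485 ± 495 and Cat, catalase, at 180 ± 72.3, both highest here. Car2, a carbonic anhydrase, was at 1669 ± 322, but myelinating oligodendrocytes held 5321. Enzymes of the main glycolytic route lay close to other cells, with Aldoa at 716 ± 126 against 717 and Gapdh at 429 ± 155 against 412.

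Genes of reticulocyte clearance and ubiquitin also stood high. Of the 25 ranked members of this list 14 were highest in red blood cells (2 in CPM of all UMIs) and 20 were above other cells (5 in CPM of all UMIs), and its summed level was 15479 to 34937 non-globin CPM against 5124 to 5939. Mkrn1, a ubiquitin ligase, was at 3664, 3682, 3536, 2587, 3080 and 8048 non-globin CPM (4100 ± 1980), 24.0 times the next cluster. Ubb, which encodes ubiquitin, was at 6133 ± 1746, 1.20 times the next cluster. Bnip3l (also called Nix), the receptor that targets mitochondria for removal in reticulocytes, was at 2421 ± 1218, and Ube2l6, a ubiquitin-conjugating enzyme for the interferon-induced modifier ISG15, at 1905 ± 636. The autophagy genes Gabarapl2 and Map1lc3b were at 1526 ± 721 and 949 ± 148, each over 2.2 times the next cluster. Ube2b and Ube2c, further conjugating enzymes, were at 1116 ± 502 and 544 ± 427, and Rnf10, a ligase, at 523 ± 212. In contrast Gabarapl1 at 253 ± 157 was close to the 230 of other cells.

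Genes of earlier red cell stages had few UMIs. Of 9 ranked erythroid transcription factors 1 was highest in red blood cells and 6 were above other cells, and the whole list had 114 UMIs. Klf1, the factor that drives globin and other red cell genes in erythroblasts, had 8 UMIs, Tal1 had 2, and Gata2 had none. The list of erythroid progenitor and dividing cell genes had 210 UMIs, of which 129 remained without the cell with 2 globin UMIs. Of its 12 ranked members 3 were highest in red blood cells, with or without that cell (0 in CPM of all UMIs), and 8 were above other cells (9 without that cell and 7 in CPM of all UMIs). The 3 were genes of dividing cells, Mki67 with 29 UMIs, Birc5 with 24 (128 non-globin CPM without that cell, 35.8 times other cells) and Cdk1 with 8. Birc5 was above other cells in 3 of 6 libraries, and its mean of 128 ± 184 was close to the 117 ± 90.8 of the next cluster. Kit, the stem cell factor receptor, had 3. Of the 5 embryonic and minor globin genes found in the table all had a UMI and together 67, with 37 of Hbb-bh1, an early beta-like gene (12, 5, 10, 0, 6 and 4 UMIs in the libraries). In other cells these genes were at 0 to 2.38 non-globin CPM.

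Translation genes were mixed. Pabpc1, which binds the poly(A) tail, reached 2139 ± 741, 6.24 times the next cluster, while Eef1a1 was at 1018 ± 846 against 1040 in other cells. Of 15 translation factors 3 were highest in red blood cells and 9 were above other cells. Without the cell of 2 globin UMIs 8 were above other cells, and in CPM of all UMIs there was 1. Ribosomal protein genes made up 10.4, 9.67, 19.2, 9.76, 9.69 and 10.9% of the non-hemoglobin UMIs against 9.13 to 9.87% in other cells, and the value that stood out belongs to the library with the cell of 2 globin UMIs. Of 109 ribosomal protein genes 85 were above other cells with that cell and 52 without it, and in CPM of all UMIs there were 0.

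Mitochondrial transcripts were low as a share of all RNA and high within the rest. They made up a median of 2.72% of a cell's UMIs, the lowest of the 38 clusters (4.95 to 42.5% in the others). Of the non-hemoglobin UMIs they took 19.7, 19.5, 12.7, 12.4, 17.9 and 19.2%, against 9.81 to 13.4% in other cells of the 6 libraries, and every library was above its own other cells. The 12.7% of naris occluded replicate 1 is lowered by the cell of 2 globin UMIs, which was at 3.80%. Without that cell, this share of the non-hemoglobin UMIs was 27.2% in the 8 cells of that library under 5% Hbb-bt among beta UMIs. In its 45 others it was 15.7%. All 13 mitochondrial genes had a mean above that of other cells on this scale and 0 in CPM of all UMIs. The 10 genes with the highest levels outside the globins were mt-Atp6, mt-Co3, mt-Co1, Malat1, mt-Cytb, mt-Nd1, mt-Co2, mt-Nd4, Apoe and Cst3. The 7 mitochondrial ones were 1.43 to 1.57 times other cells, while Malat1, a nuclear noncoding RNA, was at 0.416, Apoe, a lipid carrier of glia, at 0.688 and Cst3, a secreted protease inhibitor, at 0.711. Malat1 had no UMI in 50 of the 219 red blood cells and in 4475 of the 51207 other cells, which held more non-globin UMIs (median 1348 against 466). Its level was lower than in other cells in all 6 libraries. The list of nuclear long noncoding RNAs reached 10609 to 37857 non-globin CPM against 44916 to 62098.

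**Figure D2:**
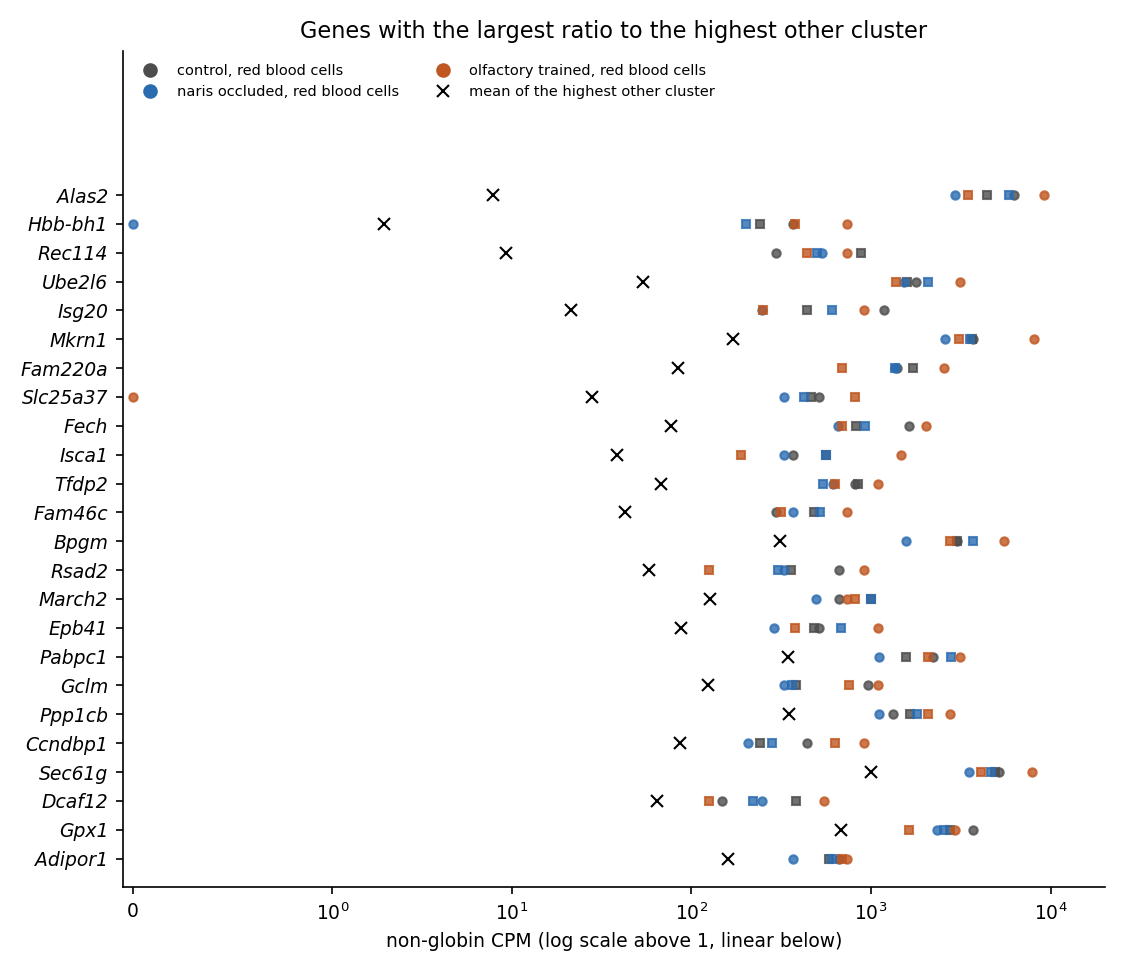
24 genes outside the adult globins with the largest ratios of their level in red blood cells to that in the highest other cluster, in non-globin CPM (log scale above 1, linear below). Points are the 6 libraries, with squares for male and circles for female pools, and crosses are the mean of the highest other cluster. Alas2 stands farthest from its cross, and Hbb-bh1 and Slc25a37 each have 1 library at 0.

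Among genes found in at least 10% of the cells, 24 with the largest ratios to the highest other cluster were Alas2, Hbb-bh1, Rec114, Ube2l6, Isg20, Mkrn1, Fam220a, Slc25a37, Fech, Isca1, Tfdp2, Fam46c, Bpgm, Rsad2, March2, Epb41, Pabpc1, Gclm, Ppp1cb, Ccndbp1, Sec61g, Dcaf12, Gpx1 and Adipor1. They were ordered by that ratio in CPM of all UMIs, in which Gclm, Ppp1cb, Ccndbp1, Sec61g, Dcaf12, Gpx1 and Adipor1 lay below another cluster, and all of them lay above every other cluster in non-globin CPM. Several are not red cell genes by name. Ube2l6, Isg20 and Rsad2 are known as interferon-induced genes, and Isg20 was at 606 ± 376 and Rsad2 at 449 ± 287, with the next highest levels in monocytes and in the endothelial cluster EC1. Sec61g, a subunit of the channel that passes proteins into the endoplasmic reticulum, was at 4886, 5155, 4682, 3490, 4085 and 7865 non-globin CPM (5027 ± 1514), 5.03 times the next cluster. Ppp1cb, a catalytic subunit of protein phosphatase 1, was at 1784 ± 582, Fam220a at 1516 ± 613 and Rec114, a gene of meiotic recombination, at 564 ± 210 against 9.30 in the next cluster. Tfdp2, a partner of the E2F cell cycle factors, was at 756 ± 204 and Fam46c, a poly(A) polymerase, at 452 ± 164.

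Genes of other cell types were present, some at about their level in other cells or above it. None of the 10 neuron, 7 olfactory sensory neuron, 10 astrocyte, 8 olfactory ensheathing cell, 9 oligodendrocyte, 12 microglia and macrophage, 10 leukocyte, 8 endothelial, 8 mural and 5 platelet genes that could be ranked had its highest level in red blood cells. Lowest relative to other cells were microglia and macrophage genes, at 482 to 1462 non-globin CPM against 3738 to 5270, with 0 of 12 above other cells, and leukocyte genes, at 0 to 422 against 754 to 956. All 9 Cd79a UMIs came from the cell with 2 globin UMIs. Other lists were nearer to their level in other cells. They were neuron genes (1694 to 4024 non-globin CPM against 3427 to 4359), astrocyte genes (6530 to 10426 against 6768 to 7716), olfactory ensheathing cell genes (3658 to 13828 against 12026 to 17444), endothelial genes (1065 to 3535 against 3420 to 4683) and mural genes (183 to 941 against 753 to 1085). Above other cells were 3 of 10 neuron, 5 of 10 astrocyte, 0 of 8 olfactory ensheathing cell, 1 of 8 endothelial and 1 of 8 mural genes. Over all 14446 genes 28.7% were above other cells and 3.56% were highest in red blood cells. The neuron count is near the first share, and lists of 5 to 12 genes are too short to set 0 highest against the second. Oligodendrocyte genes summed to 1889 to 5670 against 2141 to 2496. Just 2 of these 9 genes were above other cells and 4 had no UMI, with a median ratio to other cells of 0.0424. Mbp, a myelin protein gene, was above other cells in 6 of 6 libraries. Olfactory sensory neuron genes were at 657 to 3977 against 841 to 2350, with 6 of 7 members above other cells and none so in CPM of all UMIs. Platelet genes had 16 UMIs in all. The part of free RNA or doublets in these levels was not tested.

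Cells of the cluster differed in the beta globin that they held. Hbb-bt made up a median of 13.8% of the beta UMIs of a cell, but 41 cells were under 5%, and 6 cells lay between 4 and 6%. These cells came from all 6 libraries (15, 8, 8, 6, 3 and 1). Had every cell had the pooled share of its library, counting error alone would have put 0.179 cells under 5%. That number allows no other spread between cells and is not a test. A single cell, in control replicate 1, had 221 UMIs of Hbb-bs and none of Hbb-bt, which allows a share of up to 1.36%. The split at 5% was set after the values were seen, and these counts are a description.

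**Figure D3:**
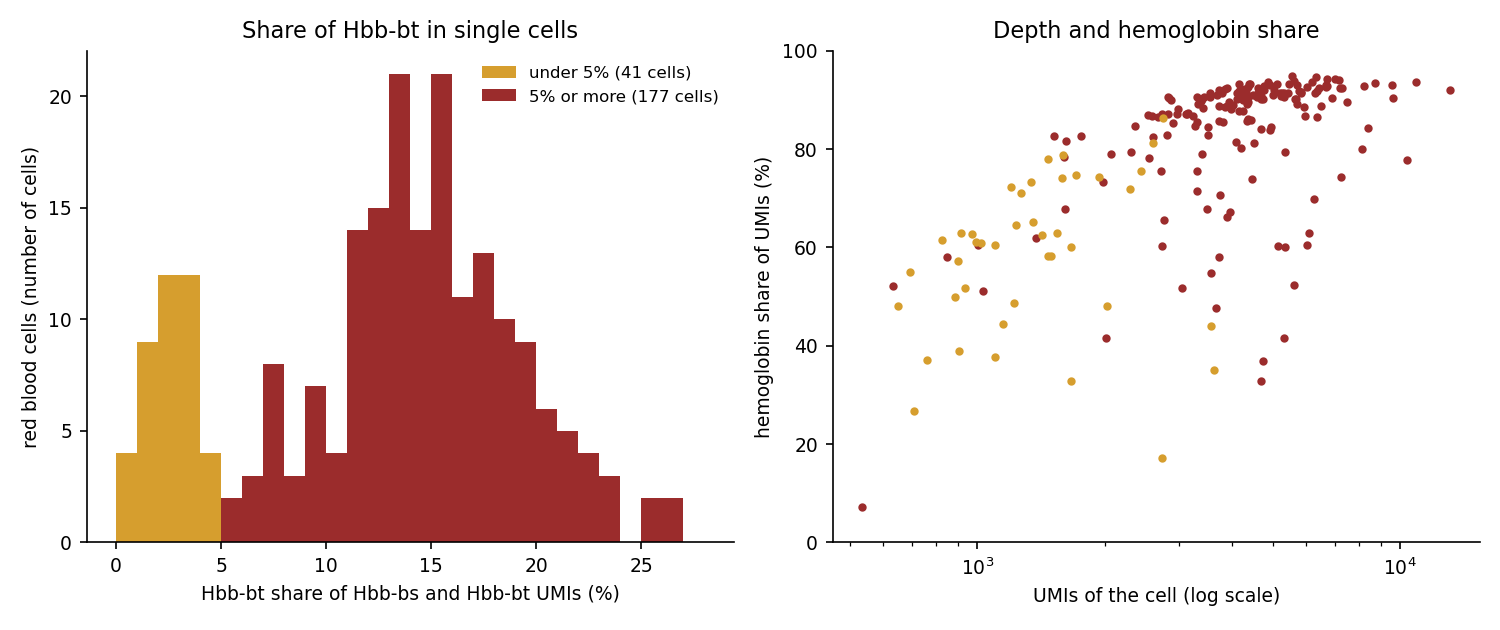
Left, number of red blood cells by the share of Hbb-bt in their Hbb-bs and Hbb-bt UMIs (%). Right, share of adult globin UMIs (%) against UMIs per cell (log scale), with the 41 cells under 5% Hbb-bt in yellow and the 177 cells at 5% or more in red; the cell with 2 globin UMIs is left out. The yellow cells lie mostly at low depth and low globin share.

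The 41 cells with little Hbb-bt had fewer UMIs and fewer red cell transcripts. Their median was 1343 UMIs per cell against 4274 in the 177 other cells, and their median globin share was 60.8 against 89.2%, lower in all 6 libraries in both measures. The number of non-globin UMIs was alike, with medians of 474 and 461. The authors' minimum on genes bears on this likeness, because nearly all genes of a cell are non-globin and cells with few are not in the data. Mitochondrial transcripts made up a median of 8.70% of all their UMIs against 2.35%, a scale that the lower globin share raises. Of non-globin UMIs, pooled over cells, they were 21.4% against 16.8%, and lower in the 41 cells in 1 of 6 libraries. Alas2 was at 940 non-globin CPM against 6396, Bpgm at 157 against 4124, Mkrn1 at 78.3 against 4799 and Fech at 39.1 against 1247. Cd24a had 0 UMIs in the 41 cells, which allows up to 117 non-globin CPM, against 285 UMIs or 2434 non-globin CPM in the others. Each of these genes was lower in all 6 libraries. In the olfactory trained libraries this rests on 0 UMIs among the 1124 and 686 non-globin UMIs of 3 and 1 cells, so the direction is not firm there. Ubb and Ftl1, which other cells also express, were lower in all 6 libraries too, at 2466 against 7053 and 2780 against 7711 non-globin CPM. Malat1 was at 27678 against 24523 non-globin CPM, Apoe at 11705 against 11476 and the ribosomal protein gene Rpl41 at 4659 against 6045. Within libraries Malat1 and Apoe were lower in the 41 cells in 4 of 6, against the pooled direction, and Rpl41 in 5 of 6. Both beta globins together were 54.5% of the globin UMIs against 55.2%, lower in 3 of 6 libraries. Olfactory trained libraries held 3 and 1 of the 41 cells, too few to compare conditions.

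**Figure D4:**
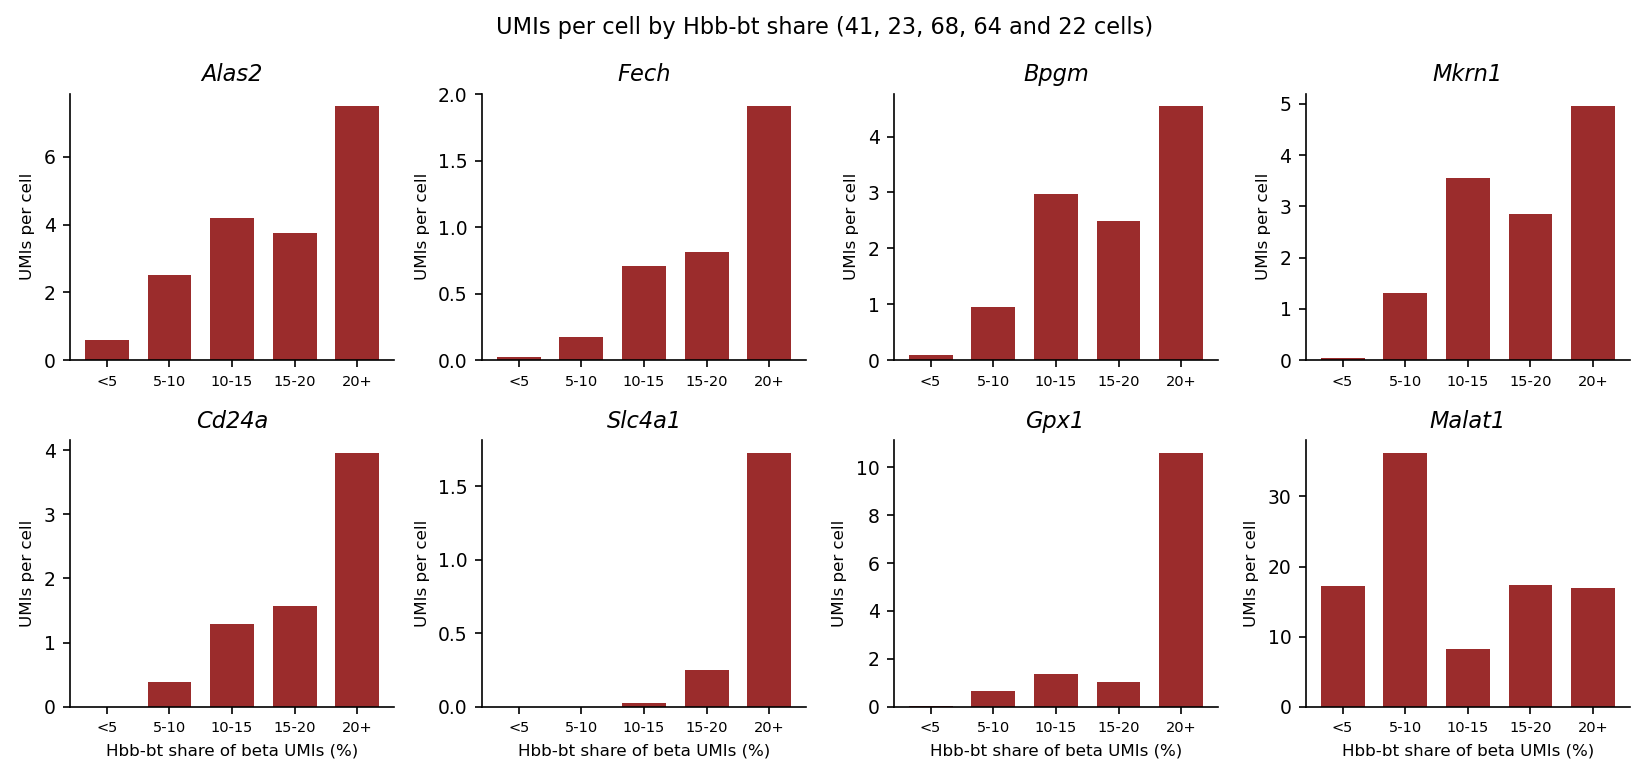
UMIs per cell of 8 genes in red blood cells grouped by the share of Hbb-bt in their beta globin UMIs (%), with 41, 23, 68, 64 and 22 cells. Bars are means over the cells of a group. Alas2 rose from 0.585 to 7.5 and Cd24a from 0 to 3.95 (2.4 without 2 cells of over 1000 genes) UMIs per cell between the first and the last group, while Malat1 had no such order.

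The 22 cells at 20% or more Hbb-bt, from 4 libraries, were at the other end. They held 7.5 Alas2, 3.95 Cd24a, 10.6 Gpx1 and 1.73 Slc4a1 UMIs per cell, against 3.75, 1.58, 1.05 and 0.25 in the 64 cells at 15 to 20%. Their median of non-globin UMIs was 823 against 429, so part of this difference goes with depth. In non-globin CPM, Cd24a was at 4065 against 2718, Gpx1 at 10886 against 1803 and Slc4a1 at 1775 against 431, whereas Alas2 was at 7709 against 6458 and Bpgm at 4672 against 4279. A pair of the 22 cells, with over 1000 genes each, held 39 of the 87 Cd24a and 65 of the 233 Gpx1 UMIs. Without them the 20 other cells held 2.4 Cd24a and 8.4 Gpx1 UMIs per cell, and Cd24a was at 2864 non-globin CPM, close to the 2718 of the cells at 15 to 20%, while Gpx1 was at 10024, Slc4a1 at 1730, Alas2 at 8950 and Bpgm at 5847. With or without the pair, levels of Alas2 and Bpgm were closer between these groups of cells than those of Gpx1 and Slc4a1.

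In all, 14 cells had over 1000 genes, and they were of 3 kinds. The cell with 2 globin UMIs was the first. A pair of cells, from control replicate 2 and naris occluded replicate 1, which are those named above, held 1124 and 1167 genes with 63 and 60.4% globin UMIs, and 17 and 22 Cd24a UMIs. They held 10 Mki67, 37 Hmgb2 (a chromatin protein of dividing cells) and 4 Klf1 UMIs between them, and 54 and 21 of Malat1. The other 11 cells, from 4 libraries, had 1078 to 1567 genes, 17.1 to 77.9% globin UMIs, 0 or 1 Cd24a UMI, 0 Mki67 UMIs and 74 to 352 Malat1 UMIs. They held 16.9% of the non-globin UMIs of the cluster and 55.4% of its Malat1 UMIs. Whether these 11 cells were doublets was not tested.

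The study compared the makeup of the olfactory bulb between deprived, enriched and control mice, and for red blood cells the first question is how many were recovered. They were 80 of 9997, 23 of 7712, 54 of 7288, 30 of 9154, 21 of 10570 and 11 of 6705 annotated cells. As shares these are 0.800% (95% exact binomial interval 0.635 to 0.995), 0.298% (0.189 to 0.447), 0.741% (0.557 to 0.966), 0.328% (0.221 to 0.468), 0.199% (0.123 to 0.304) and 0.164% (0.0819 to 0.293), with intervals that cover counting error only. Both olfactory trained libraries were below the 4 others, the male pools of control and naris occluded mice were above all others, and in each condition the male pool was above the female pool. The coefficient of variation of the share over libraries was 0.658, against 0.0928 to 0.631 in the other clusters, whereas the ratio of the highest to the lowest share was 4.88, against up to 5.63 in the others. These numbers cover only cells above the authors' minimum on genes. Red blood cells had as few as 203 genes and a median of 285, so the cluster lies close to that minimum. How far the depth of a library moved the numbers was not tested.

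**Figure D5:**
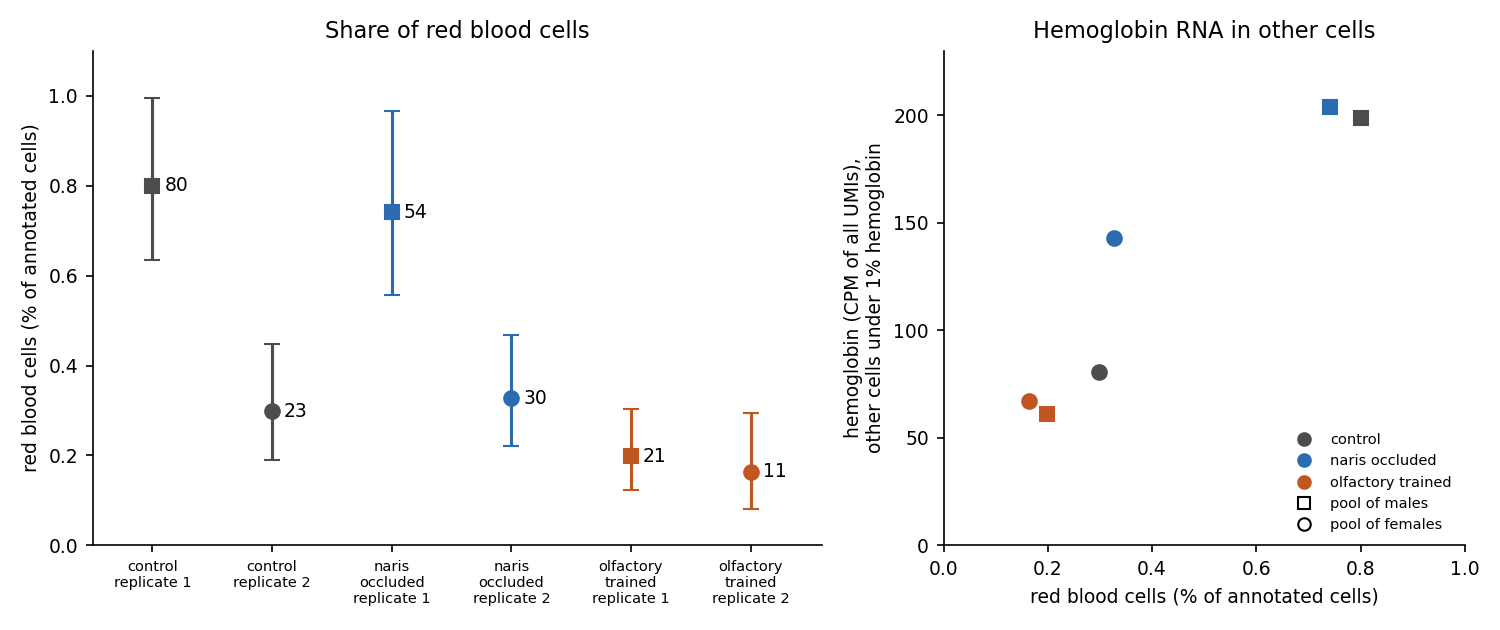
Left, share of red blood cells (% of annotated cells) in the 6 libraries with 95% exact binomial intervals and the number of cells beside each point. Right, globin CPM of all UMIs in other cells under 1% globin against that share, with squares for male and circles for female pools. Control replicate 1 and naris occluded replicate 1 are highest in both measures, at 0.800 and 0.741% and at 199 and 204 CPM.

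With edgeR's quasi-likelihood test on cell numbers of all 38 clusters, red blood cells were fewer in olfactory trained than in naris occluded libraries (log2 difference −1.51, SE 0.485, adjusted p = 0.0360, 2 libraries each). In this comparison 6 of 38 clusters passed (15.8%). The call was lost with TMM factors over the clusters (adjusted p = 0.158), with DESeq2 (0.0617), with only cells at 50% or more globin (0.0607, a choice made after the values were seen), and without naris occluded replicate 1 (log2 difference −0.83, adjusted p = 0.286) or either control replicate (0.0943). Against control the difference was −1.60 (SE 0.478, adjusted p = 0.127 by edgeR) and did not pass (0% of clusters called), but with sex, and so the replicate number, as a block it did (−1.58, adjusted p = 0.0439). Naris occluded and control libraries differed by −0.09 (SE 0.425, adjusted p = 0.935 by edgeR, 2.63% of clusters called), and this turned to 0.82 without control replicate 1 and to 0.40 without naris occluded replicate 2. Male pools held more red blood cells than female pools in 3 of 3 conditions (log2 difference 1.07, SE 0.290, adjusted p = 0.115 by edgeR, 0% of clusters called). On the shares themselves the exact two-sided permutation test gave p = 0.333 for olfactory trained against control and against naris occluded, the smallest value it can give, 1 for naris occluded against control and 0.300 for male against female pools. Nothing says that the mice of a pool were sampled separately, so these tests measure the spread between pools.

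Few genes passed between conditions within red blood cells, at 11 to 80 cells and 5467 to 49941 non-globin UMIs per library. Of 266 genes tested with edgeR on counts summed per library, 1 passed for naris occluded against control (0.376%) and 0 for olfactory trained against control (0%), olfactory trained against naris occluded (0%) and male against female pools (0%), while 25, 3, 26 and 6 genes had an unadjusted p under 0.05. DESeq2 called 1, 0, 0 and 0 genes, with 5, 1, 12 and 0 at an unadjusted p under 0.05. The gene was S100a5, a calcium-binding protein of olfactory sensory neurons. In red blood cells it was at 1862, 2357, 543, 164, 1886 and 1097 non-globin CPM, and both naris occluded libraries were below the 4 others (log2 difference from control −2.50, SE 0.469, adjusted p = 0.00486). In all other cells it was at 1266, 1202, 543, 208, 1266 and 757 non-globin CPM, with the same libraries lowest (log2 difference −1.76, adjusted p = 0.533 by edgeR, 0.0064% of features called). Without the cell of 2 globin UMIs the difference in red blood cells was −1.98 with adjusted p = 0.167 by edgeR, no gene passed and 10 had an unadjusted p under 0.05. Leaving out naris occluded replicate 2 leaves a single naris occluded library for naris occluded against control, which is assumed to vary like the others. That library is the one that holds the cell of 2 globin UMIs, so genes called in this fit are not read as changes of red blood cells. In that comparison no gene passed without control replicate 2 or without olfactory trained replicate 1.

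No member of the red cell lists passed in any comparison. For the 4 adult globins the median log2 difference was −0.36 for naris occluded against control, 0.37 for olfactory trained against control, 0.73 for olfactory trained against naris occluded and −0.27 for male against female pools (smallest adjusted p = 0.453 by edgeR), against −0.03 to 0.04 over all 266 genes. Without the cell of 2 globin UMIs these medians were 0.12, 0.36, 0.24 and −0.05, so that the direction for naris occluded against control turned. Alas2 differed by −0.34 (SE 0.408) between naris occluded and control libraries with the cell of 2 globin UMIs and by 0.16 (SE 0.489) without it. The 8 tested genes of reticulocyte clearance and ubiquitin had medians of −0.23, 0.25 and 0.49 in the 3 comparisons of conditions, and 0.18, 0.23 and 0.12 without that cell, so that the first turned. The 7 tested genes of energy and redox had medians of −0.41, 0.12 and 0.55, and of −0.02, 0.09 and 0.11 without it. Pooled globin shares overlapped between all pairs of conditions, and the exact two-sided permutation test gave p = 0.667 or above.

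Globin RNA was also found outside the cluster. Of the globin UMIs of a library, 4.12, 11, 5.12, 14.8, 5.72 and 11.5% lay in cells of other clusters, with the 3 female pools above the 3 male pools. Just 52 of the 51207 other cells had 1% or more globin UMIs, and they held 79.0% of these UMIs; 30 had 10% or more and 6 had 50% or more. The 52 cells belonged to 23 clusters, and of the 30 cells 10 were in the endothelial cluster EC1 and 3 in MicroG3. Their median of non-globin UMIs was 1834 against 1347 in the cells under 1%, and 25 of the 44 Alas2 UMIs outside the cluster were in them.

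In the remaining 51155 cells globin UMIs were rare but found in all 37 clusters. They were at 199, 80.4, 204, 143, 61.2 and 67.2 CPM of all UMIs, with control replicate 1 and naris occluded replicate 1 highest and both olfactory trained libraries lowest. Cluster means over the libraries ran from 79.3 CPM in N2 to 268 in N6, the cluster with the lowest depth (median 655 UMIs). Their makeup was not that of the red blood cells. Beta globins took 73.8, 75.3, 75.3, 71.6, 71.4 and 75.6% of them (exact binomial intervals from 68.4 to 78.6% over the libraries) against 52.9 to 57.1% in the red blood cells, and all 6 libraries were above all values of red blood cells. Hba-a2 took 47.7 to 56.1% of the alpha UMIs against 44.1 to 47.2%. In the 52 cells with 1% or more the beta share was 55.2%, within the range of the red blood cells, but Hbb-bt made up 9.07% of their beta UMIs, below the 12.5 to 15.9% of the red blood cells. The cause of the different share in the cells under 1% was not tested.

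The level of globin RNA in all other cells did not pass the test in any comparison of conditions, but some alternatives passed. Summed over the 4 genes, and with the cells at 1% or more included, it was at 594, 660, 858, 810, 250 and 539 CPM. Both naris occluded libraries were above the control libraries and both olfactory trained libraries below them. The log2 differences were 0.37 for naris occluded against control (SE 0.254, adjusted p = 0.988 by edgeR), −0.68 for olfactory trained against control (SE 0.255, adjusted p = 0.513, 0.0064% of features called) and −1.06 for olfactory trained against naris occluded (SE 0.256, adjusted p = 0.111, 0.525% called), in all of which the groups did not overlap (exact two-sided permutation p = 0.333, the smallest possible). With the block, which is also the sex of the pool, the last became −1.13 (adjusted p = 0.02 by edgeR), and with no filter on low counts it passed at −1.06 (adjusted p = 0.0454 by edgeR). Without olfactory trained replicate 2 it became −1.67 (adjusted p = 0.00254 by edgeR) and the second −1.30 (adjusted p = 0.0127), whereas without olfactory trained replicate 1 they were −0.63 (adjusted p = 0.184) and −0.26 (adjusted p = 0.673). Fitted on its own, Hbb-bs passed for olfactory trained against naris occluded (−1.17, SE 0.205, adjusted p = 0.0496 by edgeR), and Hba-a1, Hba-a2 and Hbb-bt did not (−0.79, −1.06 and −1.15). Male and female pools differed by −0.37 (SE 0.163, adjusted p = 0.542 by edgeR, 0.454% called). That difference turned to 0.59 (adjusted p = 0.313) when the cells at 1% or more were left out.

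Over the 6 libraries the share of red blood cells and the globin level of all other cells had Pearson's r = 0.484 (exact permutation p = 0.326) and Spearman's rho = 0.600 (p = 0.242). Without control replicate 1 and naris occluded replicate 1, the libraries farthest from the median share, r was 0.754 over 4 libraries. With the mean over the 37 other clusters in place of the pooled cells, r was 0.238 (exact permutation p = 0.642). With the other cells at 1% or more left out, r was 0.948 (exact permutation p = 0.00556, adjusted over 4 values 0.0222), rho 0.886 (p = 0.0333, adjusted 0.0667), and r without those 2 libraries 0.802. This restriction was chosen after the values were seen. Those 2 libraries stand apart from the other 4 in the share, and no test was made within the 4 others or within a sex.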

How the data were processed

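Raw UMI counts per gene and cell and the cell annotation were used as deposited. According to the sources, the authors made the counts with Cell Ranger 2.0.0 on mm10 from 10x Genomics 3′ libraries, pooled the libraries in a single table, removed cells with few genes and clustered the rest with Seurat 2.2.1. The annotation also holds a deposited fraction of mitochondrial UMIs per cell, which was computed again here from the counts. Cells whose cluster name was RBCs were taken as red blood cells. Each cell's library came from the annotation's library field, because the cell names of the olfactory trained libraries begin with the other library's name. The members, gene lists and comparisons were chosen with earlier results of these data known.

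Counts were summed per library over red blood cells and over all other cells. They were tested with edgeR 4.0.16 in R 4.3.3 by its quasi-likelihood test over all 6 libraries, with TMM factors and the filterByExpr filter, and p-values were adjusted by Benjamini-Hochberg and called at 0.05. Numbers of cells per cluster were tested in the same way without TMM factors. The tests were also run on simulated counts with known fold changes, with a spread that was fixed and not taken from the data. The outcome of these runs is not reported here. DESeq2 1.42.0 was an alternative, along with other scalings, filters, cell selections, a replicate block and leaving out each library. Ratios of pooled values were compared with exact two-sided permutation tests in scipy 1.17.1. A count of 0 was given the limit that 3 counts would set.

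Named genes were the adult globins, list members with at least 100 UMIs in red blood cells or at or near 0, the 25 genes with the largest ratio to the highest other cluster and the 10 with the highest level. Slc25a37, Glrx5, Urod, Blvrb, Epb41, Slc4a1, Gclm, Cat, Gapdh, Ube2c, Rnf10, Gabarapl1, Klf1, Mki67, Birc5, Cdk1 and Hbb-bh1, where they fell outside that rule, and the genes of single cells were named after their values were seen, as was the split by Hbb-bt. Some genes that the rule names are not reported here.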

Additional observations from a re-analysis of the deposited data

Results flagged for a closer look

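Male and female pools moved in opposite directions in 7 of 24 comparisons of conditions, looked at over 8 measures. With 1 library per sex and condition the difference between the sexes was not tested, and sex cannot be told apart from the replicate number.

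The share of red blood cells in naris occluded minus control mice was −0.0593 percentage points in male and 0.0295 in female pools. The globin share of the UMIs of red blood cells differed by 0.421 percentage points in male and −9.88 in female pools for naris occluded minus control, by −2.67 and 6.40 for olfactory trained minus control and by −3.09 and 16.3 for olfactory trained minus naris occluded. The mitochondrial share of UMIs differed by −1.30 and 0.0374 for naris occluded minus control, by 0.145 and −1.29 for olfactory trained minus control and by 1.44 and −1.33 for olfactory trained minus naris occluded. Naris occluded replicate 2, with the lowest globin share (73.7%), and olfactory trained replicate 2, with the highest (89.9%) and only 11 cells, enter most of these values. The male values of naris occluded mice include the cell of 2 globin UMIs, which held 32.9% of the non-globin UMIs of its library. Without that cell, globins were 71.5% of UMIs in the 8 cells of that library under 5% Hbb-bt and 88.5% in its 45 others. The male differences in globin share that use this library therefore depend on that cell.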

How the results depend on the processing

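Over 18 results and 209 alternatives, 164 were rated the same (84 of the 108 that left out a library and 80 of the rest). For cell numbers, globin RNA in other cells and the correlation, this means the same direction and side of the threshold. For numbers of called genes it means an equal or similar number. For shares of UMIs it means a shift smaller than the SD over libraries. The limits are few cells (11 to 80 per library), 2 pools per condition, and a globin share that sets the scale of all other genes. The alternatives that kept red blood cells of at least 50% globin, left out the cell of 2 globin UMIs or left out other cells of 1% or more globin were chosen after seeing the data.

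For numbers of red blood cells, olfactory trained against naris occluded lost its call with TMM factors (log2 difference −1.38), DESeq2 (−1.54) and cells of at least 50% globin (−1.51), and olfactory trained against control passed with the replicate block (−1.58, adjusted p = 0.0439) and a chi-square test on pooled cells (−1.65), which ignores the spread between libraries. Male against female pools passed with TMM factors (1.16). Leaving out each library gave −0.77 to 0.82 for naris occluded against control (0.82 without control replicate 1 and 0.40 without naris occluded replicate 2), −2.12 to −0.70 for olfactory trained against control, −2.00 to −0.83 for olfactory trained against naris occluded and 0.84 to 1.29 for male against female pools. Olfactory trained against control passed without either naris occluded library, and male against female pools passed without either olfactory trained library (1.29 in both).

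Genes called within red blood cells for naris occluded against control numbered 0 with no filter on low counts and 0 without the cell of 2 globin UMIs, and 0 to 13 on leaving out a library. Olfactory trained against control gave 1 with cells of at least 50% globin and 0 to 0 on leaving out a library. Olfactory trained against naris occluded gave 1 with no filter, 1 with cells of at least 50% globin and 0 to 2 on leaving out a library, and male against female pools gave 1 with no filter, 1 without the globin genes and 0 to 3.

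Globin RNA in all other cells passed for olfactory trained against naris occluded with the replicate block (−1.13, adjusted p = 0.02) and with no filter (−1.06, adjusted p = 0.0454). Male against female pools turned to 0.68 without other cells of 10% or more globin and to 0.59 without those of 1% or more. Leaving out each library gave 0.30 to 0.45 for naris occluded against control, −1.30 to −0.26 for olfactory trained against control, −1.67 to −0.63 for olfactory trained against naris occluded and −0.59 to −0.04 for male against female pools. The correlation of the share of red blood cells with globin RNA in other cells rose to 0.941 and 0.948 without other cells of 10% and of 1% or more globin, fell to 0.238 with the mean over the 37 other clusters, and was 0.260 to 0.701 on leaving out a library. As means over single cells, the Hbb-bt share was 12.3% and the mitochondrial share 4.29%. Except where said above, the cause was not tested.

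Libraries of the same number share a sex but no stated batch. Their deviations correlated at 0.0650, −0.0820 and −0.296 over 266 genes in red blood cells and at 0.399, 0.357 and 0.289 in other cells. The replicate block changed no call other than those above.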

Other observations

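The count table held 1123 barcodes that the annotation does not name. Their median depth was 2327 UMIs, their globin level 142 CPM of all UMIs and their highest globin share 0.265%, so none had 1% or more globin. In annotated cells of other clusters under 1% globin the level was 61.2 to 204 CPM over the libraries.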
